A study of Mus musculus with 12 samples.

Results

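Etomoxir-treated and vehicle-treated 4T1 cells were compared for H3K27ac, the acetylation of lysine 27 on histone H3, which marks active promoters and enhancers. The comparison used 4 of the 12 ChIP-seq libraries in the series, chosen by their treatment label: 2 from cells given vehicle and 2 from cells given 50 µM etomoxir, each for 48 h. 4T1 is an established mouse mammary carcinoma line, and the labels describe every library as wild type. None of these 4 libraries received acetate or SB204990, an inhibitor of ATP citrate lyase. The other libraries came from cells given 5 mM acetate, etomoxir with acetate, etomoxir with 50 µM SB204990, or all of these agents. Each group had 2 libraries, named here set 1 and set 2 after the suffix that library names share. The labels do not say what a set stands for or that the libraries came from separate cultures, so every p-value below measures only the spread between these libraries, which may be technical.

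Etomoxir blocks carnitine palmitoyltransferase 1, the enzyme at the outer mitochondrial membrane that couples long-chain fatty acids to carnitine so that they can be oxidized. Fatty acids that are not oxidized can bind the peroxisome proliferator-activated receptors (PPARs), nuclear receptors that pair with RXR. PPARs are known to switch on genes for fatty acid import, oxidation and storage, among them Pdk4, Cpt1a and Angptl4. Acetyl-CoA made from fatty acids or citrate is the acetyl donor of histone acetyltransferases, and the comparison addresses where H3K27ac differs once fatty acid oxidation is inhibited.

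The table gave 126464 intervals of mouse genome build GRCm38 (mm10), 165 to 185673 bp long, each tied to the symbol of a nearby gene. A deposited value was the number of reads in the interval times 1 spike-in factor for the whole library, taken from human chromatin added before the precipitation. Vehicle libraries held 14601286 and 9689378 reads in the intervals, with factors of 0.467 and 0.792. Etomoxir libraries held 14024593 and 13712757 reads, with factors of 0.571 and 0.573. Each comparison was made on the deposited values and on shares, that is, after dividing every library by its own sum. The etomoxir + SB204990 library of set 2, which is in none of the 4 but enters the shared estimate of the spread, stood apart, with a mean correlation of 0.965 with the other libraries against 0.976 to 0.978 for the rest. Results are therefore also given without it.

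Library-wide, the deposited signal under etomoxir was 1.17 times that of vehicle in set 1 and 1.02 times in set 2. The vehicle libraries summed to 6824977 and 7676895, and the etomoxir libraries to 8014784 and 7852445. The factor was exactly 1 in 1 library of each set (etomoxir + acetate in set 1 and etomoxir + SB204990 in set 2), and whether both sets share 1 scale is not stated. Ratios within a set and shares do not depend on that, whereas deposited levels set side by side across the sets do. The 2 sets did not give a common direction at the level of the intervals. Of the tested intervals, 53.1% went up in 1 set and down in the other, and an exact permutation test of 2 against 2 libraries cannot fall below p = 0.33. The median log2 ratio over tested intervals was 0.15 as deposited and 0.02 for shares, so changes in shares are measured against a library-wide shift of about that size.

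A small set of intervals gained H3K27ac under etomoxir, with the largest change at Pdk4. In the fit of all 12 libraries, 36 of 63903 tested intervals were higher as deposited (0.0563%) and 48 of 63469 were higher as shares (0.0756%), at a Benjamini-Hochberg adjusted limma p under 0.05. Of these, 35 were higher on both scales (97.2% of the former and 72.9% of the latter), which makes 49 higher intervals in all. Fewer intervals were lower: 4 as deposited (0.00626%) and 1 as a share (0.00158%), with none in common. At an unadjusted p under 0.05, 1219 intervals were higher as shares (1.92%) and 794 were lower (1.25%).

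The counts fell when 1 of the 4 libraries was left out. Such a fit has 1 library in that group and takes the spread from the other groups. A lost call therefore does not by itself show that a change rests on 1 library. Leaving out a library changed the 40 calls on deposited values (0.0626% of those tested) to 9 without vehicle set 1, 29 without vehicle set 2, 4 without etomoxir set 1 and 5 without etomoxir set 2. The 49 calls on shares (0.0772%) became 21, 37, 28 and 18 in the same order. Without the etomoxir + SB204990 library that stood apart, 100 intervals were higher as shares (0.158%) and 29 were lower (0.0457%), and all 48 intervals found higher with it were among the 100.

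**Figure D1:**
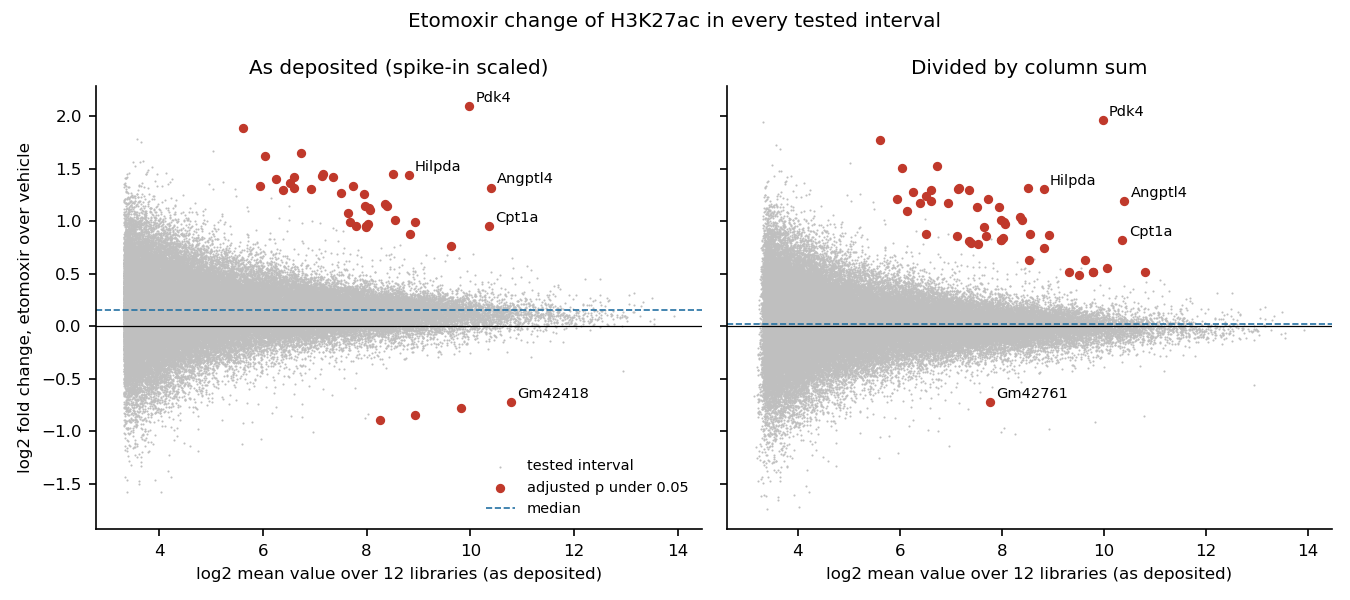
Change in H3K27ac under etomoxir (log2 fold change, y axis) against mean deposited value over the 12 libraries (log2, x axis) for every tested interval, as deposited on the left and as shares of the column sum on the right. Red points had an adjusted p under 0.05 (36 higher and 4 lower on the left, 48 higher and 1 lower on the right), and the dashed line is the median, which lies at 0.15 on the left and 0.02 on the right.

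All 49 higher intervals had both etomoxir libraries above both vehicle libraries on both scales. Of all tested intervals, 32.0% showed this pattern as deposited and 18.1% as shares. The 49 were picked by a test on these same libraries, so the pattern follows largely from that choice. They were long, with a median of 7931 bp against 1831 bp for the tested intervals, and none was shorter than 2804 bp. Their median GC content was 44.9%, against 46.5% for the tested intervals. Of the 49, 7 covered the start site of a protein-coding gene (Pdk4, Cpt1a, Acot2, Angptl4, Fbp2, Dnah6 and Rab11b). Another 24 overlapped such a gene away from its start, and 18 lay outside protein-coding genes. Among intervals that cover a protein-coding start site, 7 of 8997 (0.0778%) were higher as shares.

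Pdk4 had the largest change among the called intervals. It encodes pyruvate dehydrogenase kinase 4, which inhibits pyruvate dehydrogenase and so spares glucose when fat is burnt. The interval over its start, chr6:5495394-5519590, covers the start of the gene, which lies on the minus strand, and extends upstream. It held 247 and 297 in the vehicle libraries and 1123 and 1201 in the etomoxir libraries. The etomoxir libraries were thus far above both vehicle libraries, and close to each other. Its log2 fold change was 2.10 ± 0.18 (SE) as deposited, with an adjusted limma p of 2.53e-26, and 1.97 ± 0.09 as a share, with an adjusted p of 1.35e-09. This was 3.92-fold on the share scale. In bulk chromatin, more cells with the mark and more of the mark per cell cannot be told apart. It was called in 15 of 17 settings tried on deposited values, at 1.88 to 2.23 on the log2 scale in all of them.

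The gain at Pdk4 was not limited to its start. Within 100 kb of the start, 14 intervals were tested, all 14 had a positive change in share, and both etomoxir libraries exceeded both vehicle libraries in 12, where 18.1% of all tested intervals did so. Of these, 5 were called higher as shares (0.0756% of all tested intervals were), and 6 without the library that stood apart. The summed signal of this window was 1.92-fold higher as a share. An upstream interval at chr6:5550181-5558744, 53872 bp from the start, held 81.8 and 112 in vehicle and 244 and 242 in etomoxir, a log2 change in share of 1.21 ± 0.12 with an adjusted p of 7.95e-05. A more distant upstream interval, chr6:5580934-5592335, held 137 and 200 in vehicle and 350 and 397 in etomoxir. The remaining called intervals lay downstream of Pdk4 under the symbol of its neighbour Asb4, an ankyrin repeat protein. The broader of these, chr6:5423055-5457814, held 1120 and 1353 in vehicle and 1851 and 2021 in etomoxir, with a log2 change in share of 0.52 ± 0.09 and an adjusted p of 0.0378.

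The DNA at the intervals is shown for the genes of fatty acid use, since PPAR and RXR are known to bind a direct repeat of AGGTCA with 1 base between the copies. Both strands of the 49 higher intervals were searched for AGGTCANAGGTCA and for the looser AGGNCANAGGNCA, which contains it. The exact repeat was in 2 of the 49 (4.08%) and in 508 of 22991 other tested intervals of the same length range (2.21%). The looser repeat was in 15 of the 49 (30.6%) and in 3495 of the others (15.2%). Because the called intervals were longer, the density per 100 kb is also given: 3.86 looser matches in the called intervals and 2.42 in the others. Of the 20 looser matches, 50.0% lay in bases that the assembly marks as repeats, as did 54.4% of those in the other intervals. A match describes letters in the window and not a bound receptor.

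The exact repeats lay in the broad interval between Asb4 and Pdk4 and in an intron of Cpt1a, and looser ones lay at Angptl4, Ucp3 and Hilpda. Each is printed on the plus strand of GRCm38 with 20 bases on either side, and capitals mark the repeat.
Pdk4, downstream, chr6:5452292-5452344: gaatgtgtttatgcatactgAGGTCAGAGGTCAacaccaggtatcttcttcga
Cpt1a, intron, chr19:3341987-3342039: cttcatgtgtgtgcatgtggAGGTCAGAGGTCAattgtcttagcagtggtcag
Angptl4, intron, chr17:33775755-33775807: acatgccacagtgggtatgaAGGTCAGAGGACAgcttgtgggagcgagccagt
Ucp3, upstream, chr7:100463269-100463321: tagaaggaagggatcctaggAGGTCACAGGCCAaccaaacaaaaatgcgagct
Hilpda, upstream, chr6:29250209-29250261: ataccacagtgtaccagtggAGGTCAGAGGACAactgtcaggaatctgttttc
The Pdk4 match lay 43991 bp from the Pdk4 start, the Cpt1a match 19679 bp, the Angptl4 match 6049 bp, the Ucp3 match 9695 bp (within the neighbouring gene C2cd3) and the Hilpda match 22253 bp. All of these except the Ucp3 match lay wholly in bases marked as repeats. Other looser matches in the called intervals at these genes lay wholly outside such bases, in an exon of Angptl4, in an intron of Cpt1a and within Asb4, and are not printed.

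The promoters of 3 genes whose start lay in a higher interval are shown from the RefSeq table of GRCm38, as the bases before the RefSeq start site. Neither form of the repeat was in the whole RefSeq window of 300 bases for these genes, and across 32851 such windows the looser form was in 0.381%. For the percentages over RefSeq promoters, the boxes were counted over the first 250 bases of each window. For these 3 genes they were counted in the printed stretches of 219, 250 and 234 bases. The stretches leave out bases annotated as untranslated regions. The RefSeq start used for Cpt1a lies downstream of chr19:3322334, the start from which its distance above was measured. Its printed stretch thus lies within the annotated gene. Capitals mark a CCAAT box, found in 33.8% of RefSeq promoters on either strand (here as ATTGG), or a GC box, GGGCGG, found in 32.7% (here as CCGCCC). The letters TATAAA, which make a TATA box, were in 12.4% of RefSeq promoters and in none of these.
Pdk4, minus strand, chr6:5496310-5496528: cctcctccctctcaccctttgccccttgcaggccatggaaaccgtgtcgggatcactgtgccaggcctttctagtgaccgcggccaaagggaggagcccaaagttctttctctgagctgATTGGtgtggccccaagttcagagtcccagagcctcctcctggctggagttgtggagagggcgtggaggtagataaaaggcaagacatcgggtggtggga
Acot2, plus strand, chr12:83987611-83987860: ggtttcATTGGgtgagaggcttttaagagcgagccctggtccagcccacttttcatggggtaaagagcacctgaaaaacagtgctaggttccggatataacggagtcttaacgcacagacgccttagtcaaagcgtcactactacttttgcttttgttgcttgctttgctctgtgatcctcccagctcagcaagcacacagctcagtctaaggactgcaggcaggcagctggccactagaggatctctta
Cpt1a, plus strand, chr19:3323051-3323284: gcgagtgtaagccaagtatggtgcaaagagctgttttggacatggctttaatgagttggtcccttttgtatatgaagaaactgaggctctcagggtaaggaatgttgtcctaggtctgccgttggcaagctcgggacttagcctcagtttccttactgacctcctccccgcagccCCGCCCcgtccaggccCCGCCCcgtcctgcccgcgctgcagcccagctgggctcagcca

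Cpt1a encodes the liver-type isoform of the enzyme that etomoxir inhibits. The interval over its start, chr19:3320685-3347179, held 590 and 756 in vehicle and 1266 and 1322 in etomoxir. All of the etomoxir signal lay above the vehicle signal, with a log2 change of 0.95 ± 0.18 as deposited (adjusted p = 2.58e-04) and 0.82 ± 0.09 as a share (adjusted p = 2.47e-04). Summed over the 10 intervals given to the symbol, Cpt1a rose from 810 and 1072 to 1669 and 1650. Cpt2, which encodes the inner-membrane partner of Cpt1a, held 105 and 120 in vehicle and 206 and 184 in etomoxir. Its log2 change in share of 0.66 ± 0.12 did not pass the test (adjusted p = 0.109), and passed it without the library that stood apart (adjusted p = 0.0311). Of the 8 genes of the carnitine shuttle, 6 had enough signal to be tested, 1 was called higher as a share (Cpt1a, not called as deposited) and the median log2 change was 0.27, against 0.01 over all 19486 genes tested. Across all genes, 27 were called higher as shares (0.139%) and none lower (0.0%), and 3 were called as deposited, all of them higher (0.0154%), namely Pdk4, Ucp3 and 4931413I07Rik. With a term for the set in the fit, which takes up any difference in scale between the sets, 17 genes were called as deposited (15 higher and 2 lower) and 24 as shares. At an unadjusted p under 0.05, limma gave 455 genes higher as shares (2.34%) and 339 lower (1.74%). The 27 became 3 without vehicle set 1, 6 without vehicle set 2, 3 without etomoxir set 1 and 2 without etomoxir set 2, and 54 higher (0.277%) with 18 lower (0.0924%) without the library that stood apart.

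Acot2 encodes a mitochondrial thioesterase that releases free fatty acids from acyl-CoA. An interval downstream of it, chr12:83996578-84001260, held 25.7 and 38.0 in vehicle and 98.3 and 102 in etomoxir. Signal was low in the vehicle libraries and several-fold above that in both etomoxir libraries, with a log2 change in share of 1.53 ± 0.17 (adjusted p = 2.47e-04). At the start of Acot2, chr12:83985118-83990825, the values were 117 and 127 in vehicle and 246 and 229 in etomoxir, with a log2 change in share of 0.82 ± 0.14 and an adjusted p of 0.0229. As a share, the downstream interval was called in 14 of 16 settings tried and the interval at the start in 6, which lost its call when any 1 of the 4 libraries was left out and with edgeR or DESeq2. The cytosolic paralog Acot1, whose start is the protein-coding start nearest to the downstream interval, held 21.03 and 38.0 against 62.9 and 52.1 over its own intervals (log2 change in share 0.87, adjusted p = 0.611). These genes share near-identical sequence, so reads may be split between them. Of 18 acyl-CoA thioesterase and synthetase genes, 14 were tested and the median log2 change in share was 0.10. As a share only Acot2 was called, where 0.139% of all genes were called higher, and as deposited none was. The call for the Acot2 gene sum was lost when any 1 of the 4 libraries was left out.

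Angptl4 encodes a secreted inhibitor of lipoprotein lipase. The interval over its start, chr17:33774033-33792193, which the table gives to the symbol 4931413I07Rik, held 509 and 620 in vehicle and 1347 and 1469 in etomoxir. This gain was called on both scales, with a log2 change of 1.32 ± 0.18 as deposited (adjusted p = 1.71e-09) and 1.19 ± 0.11 as a share (adjusted p = 4.46e-05). Hilpda, a lipid droplet protein that inhibits adipose triglyceride lipase, had 167 and 174 in vehicle and 494 and 437 in etomoxir in an upstream interval, chr6:29241093-29251303. Its log2 change in share was 1.31 ± 0.14 (adjusted p = 1.47e-04). Plin2, which coats lipid droplets, held 1508 and 1594 in vehicle and 2260 and 2217 in etomoxir over its intervals. Both of its etomoxir libraries were higher, but the log2 change in share of 0.40 ± 0.09 did not pass the test (adjusted p = 0.289, and 0.0128 without the library that stood apart). Of 17 lipid droplet and lipolysis genes, 9 were tested, and the median log2 change in share was -0.06. Hilpda alone was called as a share (0.139% of all genes were called higher) and none as deposited, and the call for its gene sum was lost when any 1 of the 4 libraries was left out.

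Ucp3 encodes an uncoupling protein of the inner mitochondrial membrane. The interval upstream of it, chr7:100458900-100469983, which lies within C2cd3, held 121 and 160 in vehicle and 390 and 373 in etomoxir. The etomoxir libraries did not overlap with vehicle, and the log2 change was 1.45 ± 0.20 as deposited (adjusted p = 1.36e-08) and 1.32 ± 0.11 as a share (adjusted p = 1.05e-05).

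Fbp2, the muscle isoform of fructose bisphosphatase, held 29.0 and 36.4 in vehicle and 92.6 and 85.3 in etomoxir in the interval over its start, chr13:62856386-62860871. Low in vehicle and higher in both etomoxir libraries, it had a log2 change in share of 1.30 ± 0.18 (adjusted p = 0.00266). Its gene sum was the only call in share among 17 tested genes of glucose uptake and glycolysis (0.139% of all genes were called higher). Their median was 0.06, and none was called as deposited. That call was also lost when any 1 of the 4 libraries was left out. Pdk4 was the only call, on either scale, among 11 tested genes of the pyruvate dehydrogenase complex and its kinases and phosphatases, whose median was 0.06. Of all genes tested, 0.139% were called higher in share and 0.0154% as deposited. Pdp2, a phosphatase that reactivates the complex, held 104 and 127 in vehicle and 97.7 and 117 in etomoxir (log2 change in share -0.23 ± 0.14, adjusted p = 1.0).

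The other higher intervals lay near genes with varied roles. Among the 15 with the largest deposited change and a mean of at least 50, the intervals given to 9330188P03Rik, Lrrc6, Cfap53, Gm47357 (within Hdac9), Ppef1, Cstf2t (within Prkg1) and Msl3l2 had log2 changes in share of 1.19 to 1.32. Several are far from a start site: the 9330188P03Rik interval lay 278320 bp from the nearest protein-coding start, that of Spry2, and the Msl3l2 interval 869406 bp from its own. The Gm48809 interval, within Cog5, had a larger change of 1.77 ± 0.22 in share from low values, 13.1 and 15.8 in vehicle and 55.4 and 56.7 in etomoxir. Its mean of 48.9 over the 12 libraries put it below the level set for naming, and it was singled out after its values were seen. Among the rest were intervals at Aldh1a1, a retinaldehyde dehydrogenase (120 and 124 against 246 and 298), Nceh1, a cholesterol ester hydrolase (174 and 212 against 371 and 404), Smox, the spermine oxidase (616 and 649 against 1036 and 1003), and Agpat3, an acyltransferase of phospholipid synthesis (455 and 584 against 850 and 766). A further one, given to Gm16984, lay within Eci2, an enoyl-CoA isomerase of fatty acid oxidation, and held 86.5 and 99.04 in vehicle and 182 and 171 in etomoxir. In the 16 settings tried on shares, the intervals at Ucp3, Angptl4, Hilpda and Nceh1 were called in at least 13, those at Cpt1a and Aldh1a1 in 12 and that at Fbp2 in 10. The intervals at Smox (7 settings), Agpat3 (6), Gm16984 (6) and the broad one at Asb4 (6) were not called when any 1 of the 4 libraries was left out.

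**Figure D2:**
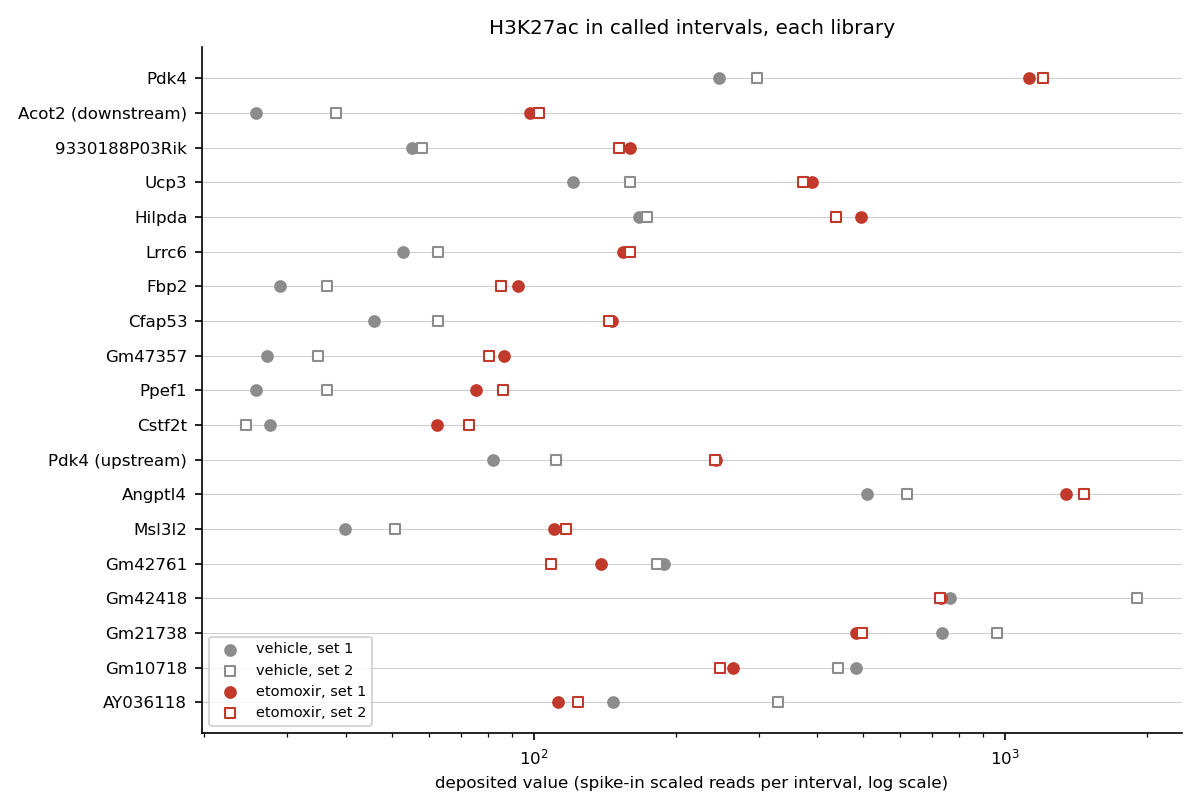
Deposited value (spike-in scaled reads per interval, log axis) of the intervals shown in the 2 vehicle libraries (grey) and the 2 etomoxir libraries (red), with circles for set 1 and squares for set 2. Upstream and downstream name intervals away from a gene's start. The top 14 intervals were higher under etomoxir and do not overlap with vehicle; the lower 5 were lower, and in Gm42418 and AY036118 the vehicle library of set 2 stands far to the right of the other 3.

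Intervals with less signal under etomoxir were few. Gm42418 and AY036118, neighbouring intervals with GC contents of 66.7% and 68.0%, lie at a ribosomal RNA pseudogene on chromosome 17. Gm42418 held 764 and 1910 in vehicle and 731 and 729 in etomoxir, so that the vehicle library of set 2 alone was high. Its log2 change of -0.73 passed as deposited (adjusted p = 0.0482), but the change in share did not (adjusted p = 1.0). The other intervals called lower as deposited, Gm21738 and Gm10718, consist for 83.7% and 96.2% of bases marked as repeats. Gm21738 held 734 and 962 in vehicle and 482 and 496 in etomoxir, and Gm10718 held 482 and 443 in vehicle and 265 and 248 in etomoxir. Neither passed as a share (adjusted p = 1.0), though both did without the library that stood apart (1.40e-04 and 7.67e-06). The 1 interval lower as a share was given to Gm42761, 104683 bp from the start of Igfbp7. It held 189 and 182 in vehicle and 139 and 109 in etomoxir, a log2 change in share of -0.72 ± 0.13 (adjusted p = 0.0335). This call was made in 7 of 16 settings and was lost without either vehicle library or etomoxir set 2. The calls as deposited at Gm42418, Gm21738 and Gm10718 were each made in 7 of 17 settings, and that at AY036118 in 8.

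Known PPAR target genes made up 4 of the 27 genes called higher in share. The list was chosen with earlier results of these data known and was given no test of its own. Of its 30 genes, 21 had enough signal to be tested, 20 of these had a positive change in share, and in 14 both etomoxir libraries lay above both vehicle libraries, where 52.9% and 18.2% of all genes tested did so. The test called 4 of them higher (Pdk4, Ucp3, Acot2 and Cpt1a) and none lower, where 0.139% of all genes tested were called higher. Without the library that stood apart it called 7, with Plin2 and Acadl among those added, where 0.277% of all genes were called higher. As deposited it called 2 (Pdk4 and Ucp3). Of the 4 in share, Pdk4 alone was still called without etomoxir set 1 or without etomoxir set 2, Pdk4 and Ucp3 without vehicle set 1, and all but Acot2 without vehicle set 2. The median log2 change in share was 0.28, against 0.01 over all genes. The gene summed under the symbol Angptl4 was not called (0.27, with 22.9 and 34.9 in vehicle and 42.9 and 32.6 in etomoxir), because the table gives the interval over its start to another symbol. When each gene was instead represented by the interval over its start site, 18 were tested and 4 were called, namely Pdk4, Acot2, Cpt1a and Angptl4 (0.0778% of all such intervals were), with a median of 0.25. The member with a negative change was Cpt1b, the muscle isoform of Cpt1a, which held 15.9 and 26.1 in vehicle and 21.7 and 16.6 in etomoxir. The receptors themselves and their partners were not called in any of 13 tested genes, with a median of -0.01, and Pparg held 47.7 and 65.8 in vehicle and 61.7 and 85.3 in etomoxir.

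No enzyme of mitochondrial beta-oxidation was called, where 0.139% of all genes tested were called higher in share. Of 16 tested genes, 13 had a positive change in share and 9 had both etomoxir libraries above both vehicle libraries, where 52.9% and 18.2% of all genes did so, with a median of 0.13. Acadl, the long-chain acyl-CoA dehydrogenase, held 709 and 755 in vehicle and 989 and 1047 in etomoxir, with a log2 change in share of 0.34 ± 0.07 (adjusted p = 0.182, and 0.0395 without the library that stood apart). Hadha, a subunit of the trifunctional protein, held 80.9 and 120 in vehicle and 140 and 116 in etomoxir, and its groups overlapped. No peroxisomal oxidation gene was called among 10 tested, with a median of 0.05.

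Genes for the supply and use of acetyl-CoA outside oxidation had no called member. Only 0.139% of all genes tested were called higher in share, so lists of this size would mostly have none. Acly, which encodes ATP citrate lyase, held 437 and 540 in vehicle and 511 and 526 in etomoxir (log2 change in share -0.04, adjusted p = 1.0). Acss2, which makes acetyl-CoA from acetate, held 27.1 and 33.3 in vehicle and 46.9 and 43.5 in etomoxir (0.45 ± 0.23, adjusted p = 1.0). The medians were 0.08 over 8 tested genes of acetyl-CoA supply, -0.03 over 11 of fatty acid synthesis and 0.03 over 23 of cholesterol synthesis and uptake. Histone acetyltransferases, deacetylases and readers had a median of 0.02 over 20 tested genes. Stress programs had no called member either, with medians of 0.01 over 21 genes of the integrated stress response and 0.05 over 22 of the NRF2 response.

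**Figure D3:**
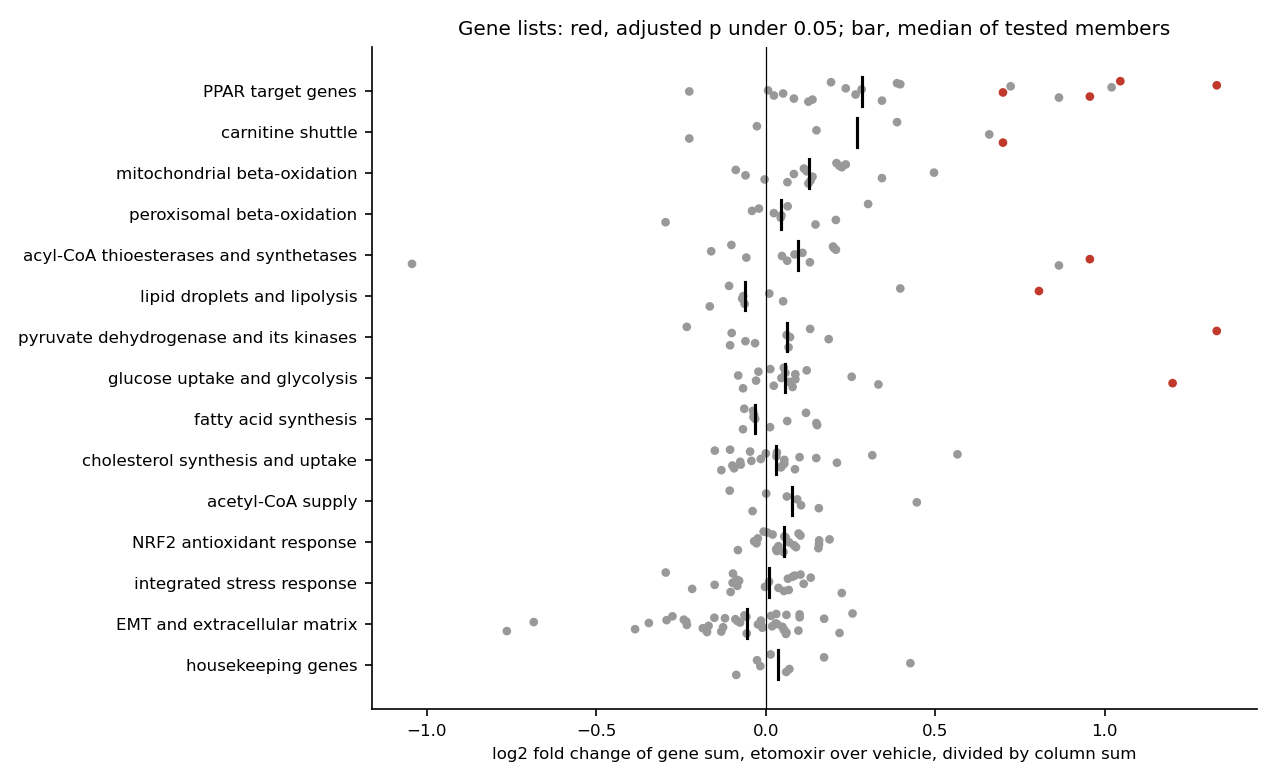
Log2 fold change in share (x axis) of each tested gene in 15 lists, where a gene is the sum of the intervals given to its symbol; red points had an adjusted p under 0.05 and the black bar is the median of the list. PPAR targets have 4 red points and a median of 0.28, while the list of EMT and extracellular matrix genes has none and a median of -0.06.

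Genes of the epithelial-mesenchymal transition (EMT) and the extracellular matrix were listed because the study displays several of them, so that the list is not independent evidence of a direction. Of 44 tested, none was called, where 0.139% of all genes tested were called higher in share and none lower. A positive change in share was seen in 17 and a negative one in 27, and the median was -0.06. Both etomoxir libraries lay below both vehicle libraries in share for 18 of the 44, where 16.0% of all genes tested did so. Mmp9, a secreted gelatinase, held 1227 and 1304 in vehicle and 1124 and 1061 in etomoxir. Its log2 change in share of -0.34 ± 0.06 did not pass the test (adjusted p = 0.0833), and passed it without the library that stood apart (adjusted p = 0.0196). Postn, which encodes the matrix protein periostin, held 1204 and 1280 in vehicle and 1196 and 1119 in etomoxir (-0.23 ± 0.07, adjusted p = 0.754). For Col1a1, a chain of type I collagen, the values were 487 and 566 in vehicle and 546 and 476 in etomoxir, and they overlapped as deposited. Sparc, which encodes osteonectin, held 1008 and 1242 in vehicle and 1038 and 1037 in etomoxir. Itga5, the fibronectin receptor subunit, held 496 and 655 in vehicle and 566 and 580 in etomoxir. The adjusted p was 1.0 for Col1a1, Sparc and Itga5, whose log2 changes in share were -0.17, -0.24 and -0.13.

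Markers of the labelled cell type carried signal in every library. Of 10 mammary epithelial markers, 8 had intervals under their symbol, and together they took 1522 and 1435 ppm of the summed signal in vehicle and 1445 and 1413 in etomoxir. Markers of other cell types were lower throughout. Fibroblast markers (6 of 6 with intervals) took 63.8 and 66.5 ppm in vehicle and 61.9 and 63.2 in etomoxir. Endothelial markers (3 of 4) took 104 and 107 in vehicle and 88.2 and 96.0 in etomoxir. Immune markers (5 of 7) took 90.8 and 96.3 against 89.7 and 83.7, and adipocyte markers (3 of 4) took 21.2 and 28.0 against 23.2 and 22.9. The summed fibroblast, endothelial and immune markers were thus lower in both etomoxir libraries than in both vehicle libraries, and the adipocyte and epithelial markers overlapped. By gene, both etomoxir libraries lay below both vehicle libraries in 3 of 6 fibroblast, 3 of 3 endothelial and 1 of 5 immune markers. Over all genes tested, 16.0% did so. Tek, Adgre1 and Plin1, defining markers of endothelial cells, macrophages and fat cells, had no interval. The libraries came from an established carcinoma line, and whether signal at these markers or at the matrix genes came from other cells was not tested.

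By annotation, the deposited signal was higher in set 1 in each of 5 classes and nearly level in set 2, leaving out 12 intervals that the table gives no class. The log2 ratio of the summed signal was 0.14 at promoters, exons, introns and transcription ends and 0.10 in intergenic intervals. Set 1 gave 0.19 to 0.26 and set 2 gave -0.01 to 0.10 over these classes. As a share, intergenic signal was lower in both etomoxir libraries, at 20.9% and 21.03% against 21.1% and 21.7% in vehicle, and the other 4 classes overlapped. Calls as shares were 23 in introns (0.0687% of those tested), 20 in intergenic intervals (0.127%; 19 higher and 1 lower), 3 at promoters (0.0522%), 2 at transcription ends (0.0466%) and 1 in exons (0.0237%).

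By length, the sets went apart most in short intervals. Among intervals up to 400 bp, the log2 ratio of the deposited sums was 0.57 in set 1 and -0.28 in set 2, and above 20 kb it was 0.17 and 0.06. The 31616 intervals with the lowest mean signal, all too low to test, gave 0.54 and -0.33. No interval of 1 kb or less was called higher. Intervals of 5 to 20 kb held 32 of the 48 higher calls in share (0.278% of those tested were called in either direction) and those above 20 kb held 7 (0.410%). By GC content, the median log2 change in share fell from 0.08 in the lowest of 5 equal GC classes of tested intervals to -0.04 in the highest. Higher calls in share numbered 20, 9, 11, 8 and 0 from the lowest to the highest class. The part of GC content in these changes was not tested.

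**Figure D4:**
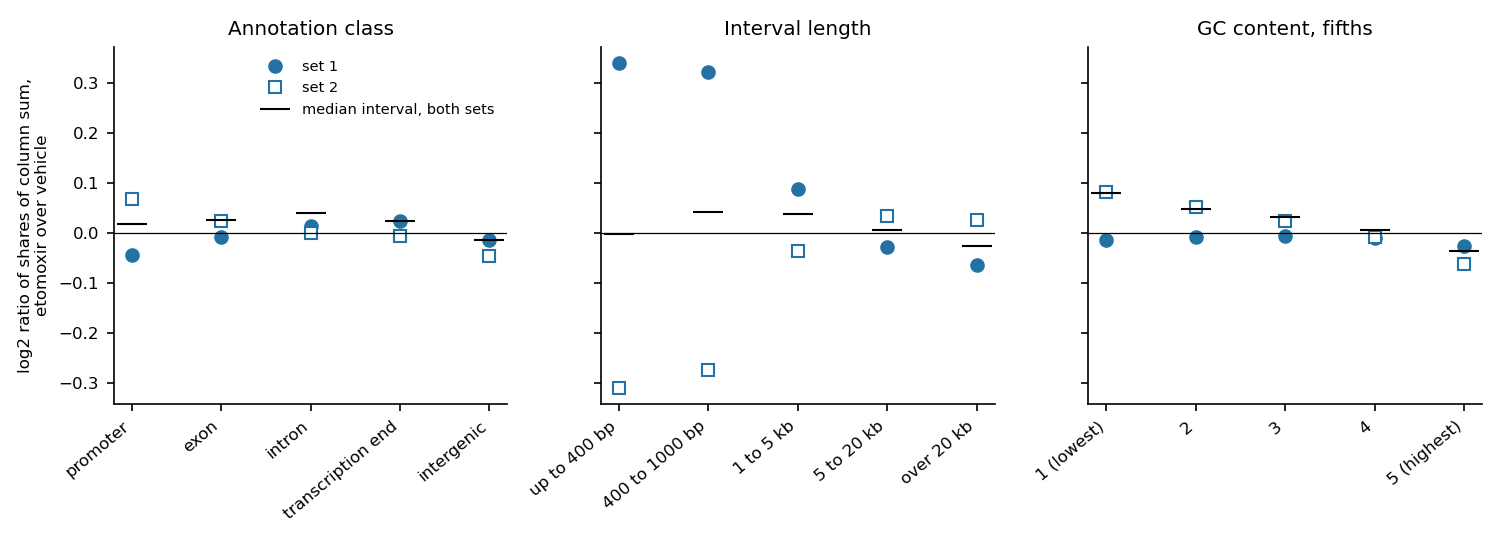
Log2 ratio of the share of the column sum, etomoxir over vehicle (y axis), for intervals grouped by annotation, length and GC content, with circles for set 1, squares for set 2 and a bar for the median tested interval. Short intervals separate the sets, at 0.34 in set 1 and -0.31 in set 2 for intervals up to 400 bp, and the intergenic class and the highest GC class lie below 0 in both.

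The same inhibitor was also given together with acetate, and the comparison of etomoxir + acetate with acetate shares no library with the comparison above. Both come from 1 fit and have the same SE at each interval, so their calls are not independent. All 49 higher intervals changed in the same direction there, by 0.37 to 1.71 on the log2 scale of shares, and 34 of the 48 called as shares without acetate (70.8%) were among the 36 called with it (94.4%). The share of all tested intervals called higher with acetate was 0.0567%, and their median log2 change in that comparison was 0.10 as shares and 0.50 as deposited. At Pdk4, the acetate libraries held 400 and 393 and the etomoxir + acetate libraries 1710 and 1726, a log2 change in share of 1.71 ± 0.09 beside 1.97 ± 0.09 without acetate. The difference was -0.26 as a share, with an unadjusted limma p of 0.063, and 0.02 as deposited, with an unadjusted p of 0.947. At Acot2, the downstream interval held 38.0 and 46.5 with acetate and 188 and 182 with etomoxir + acetate.

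The test of the difference between these changes called no interval on either scale (0.0%), with 1142 intervals as deposited (1.79%) and 823 as shares (1.3%) at an unadjusted p under 0.05. Among the 49 higher intervals, 3 had an unadjusted p under 0.05 for shares, given to Gm48809 (difference -0.80), Ucp3 (-0.34) and Gm16984 (-0.42), and each of these gains was smaller with acetate present. As deposited none of the 49 had an unadjusted p under 0.05, and these differences were -0.52, -0.07 and -0.15. Over all 49, the gain was smaller with acetate in 40 as shares and in 9 as deposited. The median difference over all tested intervals was 0.06 as shares and 0.33 as deposited. The 49, and so the 3 named, were picked by their change without acetate, which is subtracted in this difference. That choice alone favours a smaller gain with acetate, so these counts do not test whether acetate lowers it. For all 49, the smallest adjusted p of this difference was 0.905 as deposited and 1.0 as shares. An adjusted p above the threshold does not show that the changes were equal.

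**Figure D5:**
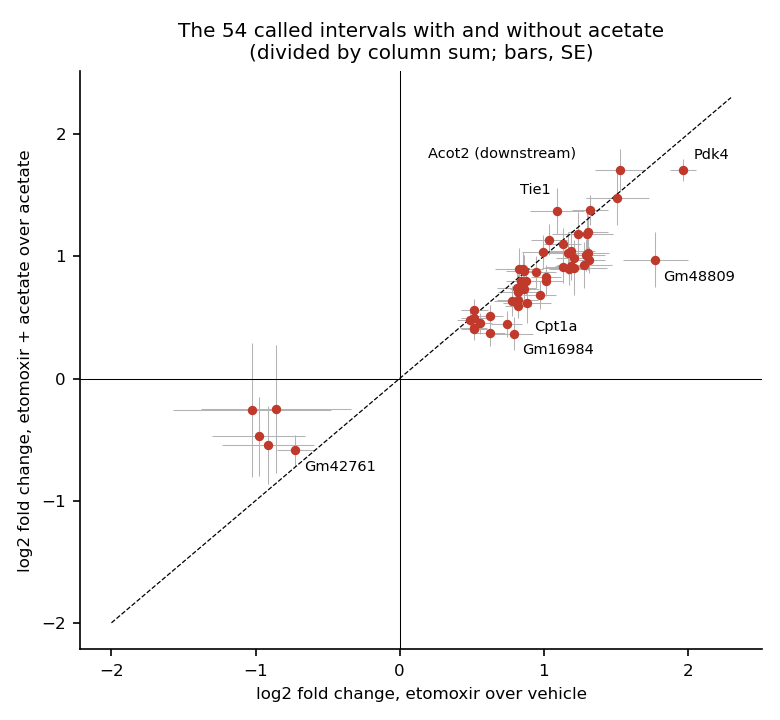
Log2 fold change in share of the 54 called intervals for etomoxir over vehicle (x axis) and for etomoxir + acetate over acetate (y axis), with bars of 1 SE and a dashed line where both are equal. All 49 higher intervals, picked by their change without acetate, lie above 0 on both axes. Below the line lie 40 of the 49, with Gm48809 farthest from it.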

How the data were processed

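H3K27ac ChIP-seq was made from formaldehyde-fixed 4T1 chromatin sheared with micrococcal nuclease, with 7.5% human chromatin added as a spike-in. The authors deposited 1 table of all 12 libraries. Per the labels, processing used deepTools and builds GRCm38 and GRCh38. Per the study's methods, the nf-core/chipseq workflow aligned reads to human and mouse genomes merged into a single reference, and each factor came from the percentage of human reads relative to the highest factor. The programs used within the workflow are not given in the sources used here. In 10 columns the deposited values are signal, reads times 1 spike-in factor per library, and in 2 columns the factor is 1 and the deposited values are whole read counts. Dividing by the factor gave whole reads for 100.0% of values, within 0.01. The level of a library thus rests on 1 factor.

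Intervals and sums of intervals per gene symbol were tested in R 4.3.3 with limma 3.58.1. A single model of the 6 groups took all 12 libraries, with 1 added to each value before log2 and the prior variance following mean signal (the intensity trend), where the mean over the 12 libraries was at least 10 (63903 intervals and 19458 genes as deposited). Fold changes on this scale understate those of low intervals. For shares, each column was divided by its sum and multiplied by the mean sum. Calls had a Benjamini-Hochberg adjusted p under 0.05. An alternative, edgeR 4.0.16 on the recovered reads, called 39 intervals and 2 genes as deposited, and 35 intervals and 18 genes with TMM. DESeq2 1.42.0 was another. The tests were tried on simulated data.

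The comparison, the gene lists and the motif were chosen with earlier results of these data known. Text names up to 15 higher and 10 lower intervals and genes per scale by size of change (mean of at least 50, same direction in both sets), the called members and largest changes of each list, and Cpt1a, Acly, Pdk4, Acot2, Postn, Col1a1, Sparc and Itga5. Other called intervals described beside these were picked after their values were seen. Start sites came from the GENCODE annotation of GRCm38. In the table, 21 gene symbols read as dates and were kept as they stand. Some genes that met the rule for naming are not reported here.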

Additional observations from a re-analysis of the deposited data

How the results depend on the processing

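All called intervals and genes kept their direction in every alternative run, but their number moved. As deposited, the 40 interval calls became 21 with no filter, 0 without the intensity trend (1242 at an unadjusted p under 0.05), 134 in a fit of the 4 libraries alone, 8 with median-of-ratios scaling, 0 with the share of reads times the factor (34 unadjusted) and 68 without the library that stood apart. The 49 in share became 1, 99, 8, 0 and 129 under the last 5 of these and 27 with DESeq2. Leaving out 1 library gave 4 to 29 as deposited and 18 to 37 in share. The 3 genes as deposited became 6 at a mean of at least 50, 0 without the trend (222 unadjusted), 25 with 4 libraries, 10 with median-of-ratios, 0 with share times factor (4 unadjusted), 30 with DESeq2, 14 with DESeq2 on the spike-in scale, 39 without the library that stood apart and 1 to 4 when 1 library was left out. The 27 in share became 1, 10, 0 and 72 without the trend, with median-of-ratios, with share times factor and without that library, and 2 to 6 when 1 was left out. Under median-of-ratios the class ratios were -0.0254 (promoter), -0.0266 (exon), -0.0268 (intron) and -0.0249 (transcription end), and with share times factor -0.12 (promoter), -0.13 (exon, intron, transcription end) and -0.17 (intergenic). The causes were not tested. Both of these scalings move every interval of a library alike, so the ratios follow from their construction and do not bear on the library-wide level. The difference with acetate gave 0 calls under every alternative run; the fit of 4 libraries cannot give it.

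The labels do not say what a set stands for, and the set numbers were not taken as pairs: deviations of same-numbered libraries correlated at -0.15 to 0.36 over 15 pairs of groups, with 3 above 0.1 and vehicle with etomoxir at -0.11. The replicate block gave 52 interval calls as deposited, 62 in share, 17 genes as deposited and 24 in share. With the 2 etomoxir numbers crossed, chosen after seeing the data, the block gave 56, 71, 23 and 29. With 2 libraries per group the precision is limited by the spread between them: the median SE of an interval was 0.41 as deposited and 0.30 in share, and 62561 intervals were too low to test.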

Other observations

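Beyond the lists and intervals above, several gene sums were higher in share under etomoxir and were picked for description after their values were seen. Hsd17b11, a dehydrogenase found on lipid droplets, held 243 and 284 in vehicle and 403 and 415 in etomoxir (log2 change in share 0.50 ± 0.07, adjusted p = 0.0315). St3gal5, the sialyltransferase that makes the ganglioside GM3, held 173 and 208 in vehicle and 306 and 312 in etomoxir (0.57 ± 0.08, adjusted p = 0.0305). Bves, a membrane protein of muscle and epithelia, held 229 and 263 in vehicle and 398 and 412 in etomoxir (0.59 ± 0.09, adjusted p = 0.0431). In each of these, both etomoxir libraries lay above both vehicle libraries. The calls rested on the fit: of 16 settings tried, Hsd17b11 was called in 7, St3gal5 in 8 and Bves in 5. Each was lost when any 1 of the 4 libraries was left out, Hsd17b11 and St3gal5 also in a fit of the 4 libraries alone, and Bves also with the replicate block.

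With all 12 libraries no gene sum was called lower, while without the etomoxir + SB204990 library of set 2, an alternative chosen after seeing the data, 18 were lower in share (0.0924%). Nox4, an NADPH oxidase, held 1104 and 1085 in vehicle and 901 and 937 in etomoxir, with a log2 change in share of -0.38 and an adjusted limma p of 0.0347 in that fit and 0.148 with the library kept. Serpina12, the adipokine vaspin, held 529 and 601 in vehicle and 490 and 471 in etomoxir (-0.36, adjusted p = 0.0209 in that fit and 0.0662 with the library kept). Klf10, a transcription factor induced by TGF-beta, was higher there, with 1147 and 1108 in vehicle and 1560 and 1576 in etomoxir (0.34, adjusted p = 0.0476 in that fit and 0.782 with the library kept).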
